A study of Mus musculus with 4 samples.

Results

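The genes described here are 10 immediate early genes: Fos, Fosb, Jun, Junb, Egr1, Egr2, Atf3, Nr4a1, Ier2 and Dusp1. The list was chosen with earlier results of these data known. Probes were taken by name, as every non-control probe whose gene name in the scanner files was one of the 10. Each gene had 1 probe, so the members made up 10 of the 39429 probes on the array. Of these, 9 passed a filter on dim probes and Junb did not, and all counts below are over those 9 unless Junb is named.

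Ureters of conditional double knockout (cDKO) embryos were compared with those of control embryos, all NMRI mice at E14.5, on 4 Agilent arrays that each held cDKO RNA in one colour and control RNA in the other. The cDKO embryos were Tbx18(cre/+) and carried floxed alleles on both copies, Fgfr1(fl/fl) and Fgfr2(fl/fl), while controls were Fgfr1(fl/?) and Fgfr2(fl/?) with no cre allele named, so floxed alleles of both fibroblast growth factor (FGF) receptor genes were present in both groups. Cre made from the Tbx18 locus acts in the mesenchyme around the ureteric epithelium, and epithelial and blood cells in the same dissected ureter are not its targets. Replicates 1 and 2 were on slide 1 and replicates 3 and 4 on slide 2, which was scanned in another run on another scanner; each slide held 1 array with cDKO RNA in Cy5 and 1 with cDKO RNA in Cy3, and 1 array labelled female and 1 labelled male. Which animals or pools gave each replicate is not stated, so a p-value covers the spread among these 4 paired extracts, which may be technical, and slide, scanner, scan and the embryos used cannot be told apart. In whole ureters, fewer cells of a type and less RNA per cell cannot be told apart either.

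Immediate early genes are transcribed within minutes of a stimulus, from factors already present in the cell and without new protein synthesis. Growth factors such as FGFs reach them through the kinase ERK, which phosphorylates ternary complex factors bound beside serum response factor (SRF) at CArG boxes, and cyclic AMP, calcium and stress kinases reach them through CREB and related factors at cyclic AMP response elements (CRE). Most of the members encode transcription factors: Fos and Fosb pair with Jun proteins to form AP-1, Egr1 and Egr2 are zinc finger factors, Atf3 is a stress-responsive CREB family factor and Nr4a1 is an orphan nuclear receptor. Ier2 encodes a nuclear protein and Dusp1 a phosphatase that switches off MAP kinases. Their transcripts are short lived.

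The sequence upstream of the members is shown as background, and a link between these letters and the levels below was not tested. Sequences of the 250 bases before the transcription start come from RefSeq (GRCm38.p6) and were matched for 8 of the 10 members. Each runs 5′ to 3′ on the gene's strand, with matches to a searched motif in capitals. The motifs, searched on both strands, were the CArG box, the CRE (TGACGTCA), the AP-1 site (TGANTCA) and an EGR site (GCGNGGGCG). The windows are chr12:85473640-85473889 (plus strand) for Fos, chr7:19310046-19310295 (minus strand) for Fosb, chr15:101266596-101266845 (plus strand) for Nr4a1 and chr17:26508473-26508722 (minus strand) for Dusp1. Egr2 had 5 annotated starts, and its 30-base stretches at chr10:67537484-67537513 and chr10:67537787-67537816 (plus strand) hold its CArG boxes.
Fos: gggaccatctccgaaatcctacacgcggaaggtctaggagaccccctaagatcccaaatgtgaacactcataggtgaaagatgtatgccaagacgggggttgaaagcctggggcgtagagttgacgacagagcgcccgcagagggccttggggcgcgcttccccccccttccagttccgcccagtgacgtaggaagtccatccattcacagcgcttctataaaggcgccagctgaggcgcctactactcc
Fosb: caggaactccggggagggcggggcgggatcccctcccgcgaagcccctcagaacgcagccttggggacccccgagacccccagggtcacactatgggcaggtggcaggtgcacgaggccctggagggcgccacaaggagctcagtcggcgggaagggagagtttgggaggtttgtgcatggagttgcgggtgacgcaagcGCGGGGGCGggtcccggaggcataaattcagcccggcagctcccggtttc
Nr4a1: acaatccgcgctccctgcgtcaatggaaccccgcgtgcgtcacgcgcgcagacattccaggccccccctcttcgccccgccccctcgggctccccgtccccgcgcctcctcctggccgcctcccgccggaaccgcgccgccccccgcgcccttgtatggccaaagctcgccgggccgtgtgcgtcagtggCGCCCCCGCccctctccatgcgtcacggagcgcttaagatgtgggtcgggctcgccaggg
Dusp1: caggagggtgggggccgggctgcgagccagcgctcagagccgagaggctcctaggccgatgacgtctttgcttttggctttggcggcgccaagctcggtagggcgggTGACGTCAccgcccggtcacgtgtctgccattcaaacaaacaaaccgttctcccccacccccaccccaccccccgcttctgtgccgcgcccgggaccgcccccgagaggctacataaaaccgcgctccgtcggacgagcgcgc
Egr2, first stretch: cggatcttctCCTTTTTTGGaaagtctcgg
Egr2, second stretch: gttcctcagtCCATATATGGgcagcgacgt
Fosb and Nr4a1 each held an EGR site, 50 and 60 bases before the start. Dusp1 held a CRE 143 bases before the start, and 4 of the 5 Egr2 windows held a CArG box. No motif was matched in the windows of Fos, Jun, Junb and Atf3, and the AP-1 site was matched in none of the 8 members searched. Egr1 and Ier2 had no window and were not searched. Of 32851 mouse promoter windows of the same length, 1.47% held a CArG box, 1.55% the CRE, 6.75% the AP-1 site and 4.7% the EGR site. A match describes these letters only, and no match says only that they are not in this window.

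The arrays held 157716 non-control spots each, 4 for every probe. The cDKO channels had median spot signals of 138.7 to 383.4 and the control channels of 169 to 417.3, with 66.1% to 71.8% of cDKO spots and 64.9% to 72.6% of control spots well above background and no saturated spot. Across genes, the correlation of the cDKO over control ratios between arrays ran between 0.006 (replicates 2 and 3) and 0.507 (replicates 1 and 2). The log2 ratio of cDKO over control was between -0.59 and -0.09 for Fgfr1 and between 0.50 and 0.68 for Fgfr2. A limma fit put Fgfr2 higher in cDKO (0.59 ± 0.07 SE, adjusted p = 0.0356) and gave -0.40 ± 0.10 for Fgfr1 (adjusted p = 0.117). The sources used here do not place these probes relative to the floxed exons, so they do not check the deletion. Markers of the labelled tissue were measured throughout: 6 of 6 of smooth muscle, 6 of 6 of ureteric mesenchyme and 9 of 9 of urothelium.

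The ratio of cDKO over control disagreed between the arrays for nearly all members. It was highest on replicate 3 for 9 of 9 members (24.0% of the 19365 genes tested had it highest there), and both slide 2 ratios lay above both slide 1 ratios for 8 of 9, all but Jun (17.6% of all genes). The ratio had the same sign on all 4 arrays for 1 of 9, Jun (25.2% of all genes). By limma, with Benjamini-Hochberg adjustment over all genes and a call at an adjusted p under 0.05, 0 of 9 members were called between cDKO and control ureters, beside 0.553% of all genes called higher and 0.3% called lower. At an unadjusted p under 0.05 it was 1 of 9, Jun, beside 19.6% of all genes. The median fitted log2 ratio of the members was 0.15, with 6 of 9 above 0, against 0.01 over all genes. The members' median turned to -0.15 without replicate 3 and was 0.45 without replicate 1, and it was 0.60 within slide 2 and -0.20 within slide 1.

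**Figure D1:**
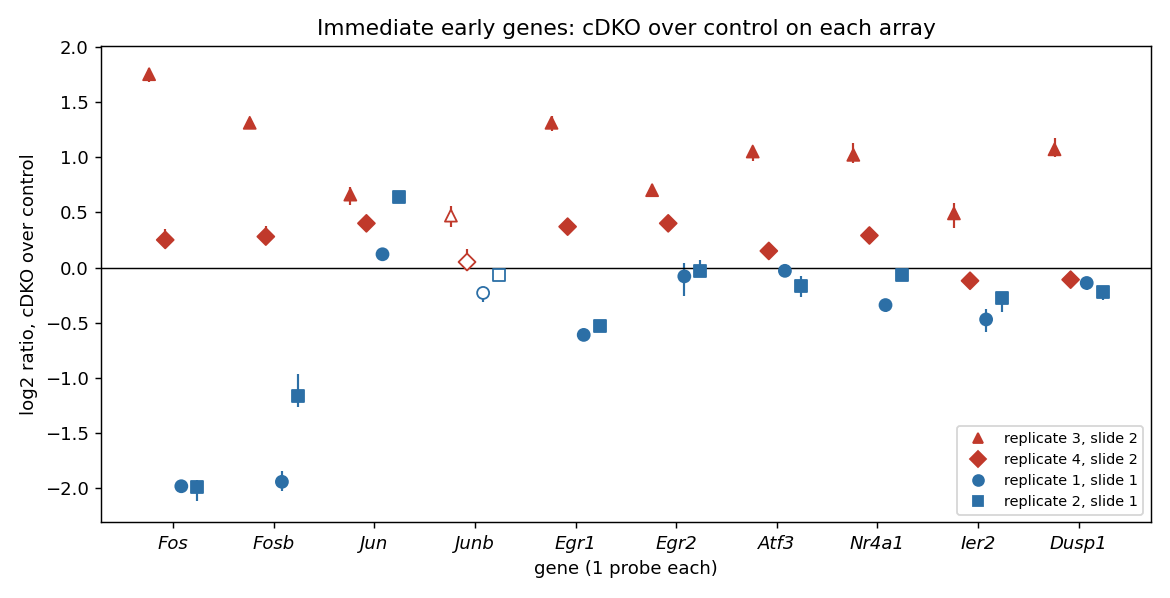
The log2 ratio of cDKO over control (vertical axis) of each immediate early gene (horizontal axis) on each of the 4 arrays; points are means over the unmarked spots of a probe, vertical lines run from the lowest to the highest of those spots, red marks are slide 2 arrays, blue marks slide 1 arrays, and Junb, which did not pass the filter, has open marks. Fos runs between -1.99 and 1.75, and replicate 3 is the highest point for every gene.

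Fos, the founding partner of AP-1, had the widest disagreement. The log2 ratio of its probe (mm9, chr12:86817900-86817959) was 1.75 on replicate 3 and 0.25 on replicate 4, against -1.98 on replicate 1 and -1.99 on replicate 2. On a linear scale Fos was 3.36-fold and 1.19-fold of control on the slide 2 arrays, against 0.253-fold and 0.252-fold on the slide 1 arrays. The arrays of slide 1 therefore put Fos below control by nearly the same amount with the dyes swapped, while those of slide 2 put it above. The fitted ratio over all arrays was -0.49 ± 0.61 (SE, n = 4, limma adjusted p = 0.706). Within slide 1 alone, over 2 arrays with swapped dyes and no dye term, it was -1.99 (adjusted p = 0.00161, n = 2), a call that the fit over 4 arrays does not make (0.971% of all genes were called lower within slide 1), and within slide 2 it was 1.00 (adjusted p = 0.61, n = 2). The difference of the cDKO effect, slide 2 minus slide 1, was 2.99 ± 0.29 (SE, limma with dye and slide terms, adjusted p = 0.0045), the fourth largest in size among all genes.

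Levels in the separate channels give each side of the ratio on each array. They are log2 intensities after loess and quantile scaling of mean intensity between arrays. Fos stood at 9.88, 9.33, 14.69 and 13.75 in the cDKO channels of replicates 1 to 4, and at 11.87, 11.32, 12.94 and 13.50 in the control channels. The groups overlapped, and within each group the slide 2 arrays were above the slide 1 arrays. The slide 2 mean was 24.5-fold the slide 1 mean in cDKO channels and 3.09-fold in control channels. The spread was therefore larger on the cDKO side, with an SD over 4 arrays of 2.70 in cDKO channels and 0.99 in control channels. The unscaled spot signals were likewise higher on slide 2 in both groups: mean Fos intensity was 1243, 293.6, 29330 and 15720 in the cDKO channels of replicates 1 to 4 and 2301, 3675, 7625 and 13970 in the control channels. These values also hold differences in general brightness. The median signal of all non-control spots in Cy3 was 169 and 138.7 on slide 1, against 301.7 and 333.2 on slide 2. In Cy5 it was 373 and 417.3 on slide 1, against 383.4 and 373.4 on slide 2.

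Fosb, the second Fos family member, followed Fos. Its log2 ratio (probe at chr7:19888168-19888227) was 1.31 and 0.28 on slide 2, against -1.94 and -1.16 on slide 1. It stood at 7.98, 7.72, 13.27 and 12.19 in the cDKO channels of replicates 1 to 4, and at 9.92, 8.88, 11.96 and 11.91 in the control channels. As for Fos, the lowest values of all 8 channels were the cDKO channels of slide 1 and the highest was the cDKO channel of replicate 3. The fitted ratio was -0.38 ± 0.50 (SE, n = 4, adjusted p = 0.726), while within slide 1 alone it was -1.55 and called (adjusted p = 0.0118, n = 2) and within slide 2 it was 0.80 (adjusted p = 0.547, n = 2). The effect differed between slides by 2.35 ± 0.34 (adjusted p = 0.0237), the eighth largest difference among all genes.

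Jun had the least spread ratios of the 9 members. Jun, the main AP-1 partner of Fos, had log2 ratios of 0.12, 0.64, 0.66 and 0.40 on replicates 1 to 4 (probe at chr4:94716928-94716987), the only member above control on every array. Its levels were 14.68, 14.98, 15.71 and 15.49 in cDKO channels and 14.56, 14.34, 15.05 and 15.09 in control channels, so each cDKO channel lay above its own control but the groups overlapped. The fitted ratio of 0.45 ± 0.11 (SE, n = 4) had an adjusted p of 0.108, and the difference of the effect between slides was 0.15 ± 0.19 (adjusted p = 0.777). With slide as a term in the fit, the Jun ratio of 0.45 was called (limma adjusted p = 0.0202), in a fit that calls 8.01% of all genes higher. Junb, an AP-1 partner that can damp the activity of Jun, was dim: in either channel, 3 or more of the 4 spots cleared the background only on replicates 3 and 4. Its log2 ratio was -0.23, -0.07, 0.47 and 0.05 on replicates 1 to 4 (probe at chr8:87501881-87501940). It was not tested, and its order over the arrays was that of Fosb, Egr1, Egr2, Nr4a1 and Ier2.

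Among the zinc finger factors, Egr1 is a direct ERK target that relays growth factor signals, and Egr2 is best known for its role in myelinating Schwann cells and hindbrain patterning. Egr1 had log2 ratios of 1.31 and 0.37 on slide 2, against -0.61 and -0.53 on slide 1 (probe at chr18:35024395-35024454). Its levels were 11.96, 11.87, 15.14 and 14.47 in the cDKO channels of replicates 1 to 4 and 12.57, 12.40, 13.83 and 14.10 in the control channels. The effect differed between slides by 1.41 ± 0.22 (SE, adjusted p = 0.0348), with a fitted ratio over all arrays of 0.13 ± 0.30 (n = 4, adjusted p = 0.856). Egr2 (probe at chr10:67004798-67004857) was above control at 0.70 and 0.40 on slide 2, against -0.08 and -0.03 on slide 1. Its levels of 7.61, 7.59, 8.99 and 8.68 in cDKO channels and 7.70, 7.63, 8.29 and 8.28 in control channels separate the slides in both groups. The difference of the Egr2 effect between slides, 0.61 ± 0.15, did not pass the threshold (adjusted p = 0.135).

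Atf3 and Nr4a1 had ratios near or below control on slide 1 and above it on slide 2. Atf3 (probe at chr1:192994547-192994606) had log2 ratios of 1.05 and 0.15 on slide 2 against -0.03 and -0.17 on slide 1, and Nr4a1 (probe at chr15:101105071-101105130) had 1.02 and 0.29 on slide 2 against -0.34 and -0.07 on slide 1. Atf3 levels were 9.05, 8.94, 11.61 and 10.76 in the cDKO channels of replicates 1 to 4 and 9.08, 9.11, 10.56 and 10.60 in the control channels. For Nr4a1 they were 11.93, 11.95, 15.17 and 14.24 in cDKO channels and 12.26, 12.02, 14.14 and 13.95 in control channels. For both genes the 4 channels of slide 2 lay above the 4 channels of slide 1, and on slide 2 replicate 3 had the highest cDKO level. Neither genotype effect passed the threshold (0.25 ± 0.17, adjusted p = 0.468 for Atf3, and 0.23 ± 0.21, adjusted p = 0.596 for Nr4a1). Nor did the difference between slides (0.70 ± 0.19, adjusted p = 0.164, and 0.86 ± 0.22, adjusted p = 0.15).

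Dusp1 stood above control on 1 array only, replicate 3, and so did Ier2. Dusp1, which dephosphorylates MAP kinases, had log2 ratios of 1.07 and -0.11 on slide 2 and -0.14 and -0.22 on slide 1. The files place its probe at chr17:26642526-26642536, a span of 11 positions for a 60-base probe. Ier2 (probe at chr8:87186214-87186273) had 0.49 and -0.12 on slide 2 and -0.47 and -0.28 on slide 1. Dusp1 levels were 10.29, 10.16, 11.81 and 11.29 in cDKO channels and 10.42, 10.39, 10.74 and 11.40 in control channels, and those of Ier2 were 8.47, 8.30, 10.03 and 9.75 in cDKO channels and 8.93, 8.58, 9.54 and 9.87 in control channels. On replicate 4 both genes were high in both channels at once, which the ratio does not show. Neither was called between genotypes (0.15 ± 0.18, adjusted p = 0.703 for Dusp1, and -0.09 ± 0.15, adjusted p = 0.79 for Ier2) or for a different effect between slides (0.66 ± 0.23, adjusted p = 0.259, and 0.56 ± 0.20, adjusted p = 0.254).

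Spots of the same probe on the same array agreed closely for all members. The pooled SD of the log2 ratio between spots was 0.066 for Fos and at most 0.091 (Fosb), beside a median of 0.066 over all genes. Between arrays the SD was 1.83 for Fos, 1.45 for Fosb, 0.90 for Egr1, 0.62 for Dusp1, 0.59 for Nr4a1, 0.55 for Atf3, 0.42 for Ier2, 0.37 for Egr2 and 0.25 for Jun, beside a median of 0.177 over all genes. The SD between arrays was thus 4.58 to 27.8 times that between spots, and for 6 of 9 members it was above the 95th percentile of all genes. Fos ranked 7 and Fosb 10 of 19365 by this SD, and Jun 4994. For 7 of 9 members, every unmarked spot of both slide 2 arrays was above every unmarked spot of both slide 1 arrays. This count was not taken over all genes. By the mean ratio of each array, the same order held for 8 of 9 members and 17.6% of all genes.

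**Figure D2:**
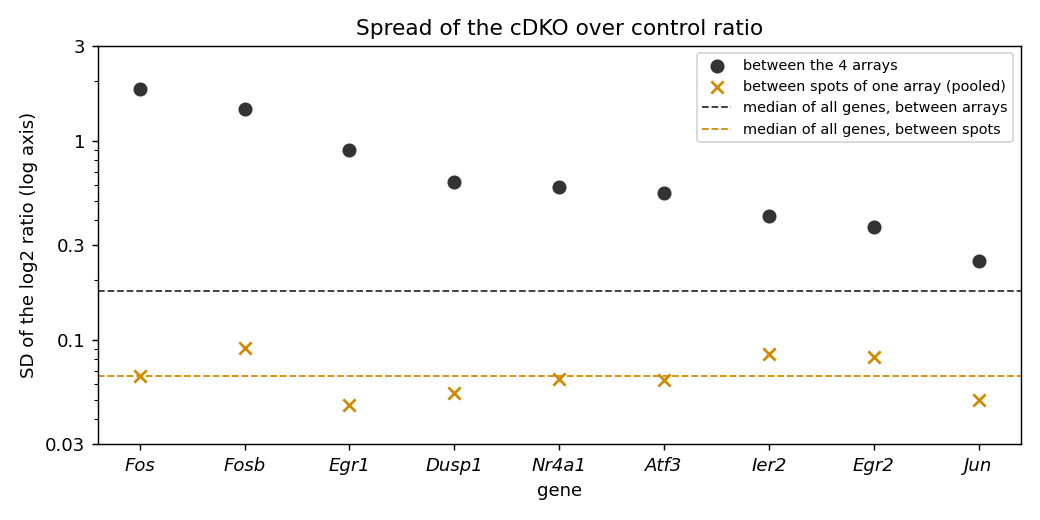
The SD of the log2 cDKO over control ratio of the 9 measured members (horizontal axis) between the 4 arrays (black circles) and between spots of the same probe within an array, pooled (crosses); the vertical axis is logarithmic and dashed lines are medians over all genes. Every member's black circle, 1.83 for Fos to 0.25 for Jun, lies above both its cross and the all-gene median of 0.177.

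The slide comparison within the same data gave 3 of 9 members called for a different cDKO effect, Fos, Fosb and Egr1, all higher on slide 2 (0.341% of all genes were called in that direction). At an unadjusted p under 0.05 it was 8 of 9, all but Jun, beside 14.3% of all genes. This fit leaves 1 residual degree of freedom, and its calls are lost without the dye term (adjusted p = 0.137 for Fos, 0.181 for Fosb and 0.323 for Egr1) or with dim probes kept (0.133, 0.204 and 0.204). The Egr1 call is also lost with median centring in place of loess (adjusted p = 0.476) and with the processed signals of the scanner software (0.0826). The gene-specific dye effect had an unadjusted p under 0.05 for 0 of 9 members (8.8% of all genes), with a lowest adjusted p of 0.642. The cDKO effect in arrays labelled female minus those labelled male was below 0 for 9 of 9 members, and it had an unadjusted p under 0.05 for 0 of 9 (1.07% of all genes), with all adjusted p-values at 1.0. Replicate 3, where 9 of 9 members had their highest ratio, is labelled male, so this sign is not a separate result. Its share over all genes was not taken. The dye and sex fits had no slide term, so the slide differences stood in their error. They cannot show that dye or sex had no effect on the members.

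Expression of the members was higher on slide 2 in both genotypes. The 4 channel levels of slide 2 were above all 4 of slide 1 for 9 of 9 members (10.6% of all genes), and Junb had the same order. With both channels of an array averaged, limma called 9 of 9 members higher on slide 2 than on slide 1 (15.8% of all genes), a comparison added after the channel levels were seen. The log2 difference was 3.71 ± 0.24 for Fosb (SE, n = 2 arrays a slide, adjusted p = 0.000416), 3.12 ± 0.17 for Fos (adjusted p = 0.000206) and 2.33 ± 0.16 for Nr4a1 (adjusted p = 0.00064), which were the 3 largest rises of all genes. Egr1 (2.19 ± 0.09, adjusted p = 0.000139) ranked 5 and Atf3 (1.84 ± 0.12, adjusted p = 0.000565) ranked 10, so 5 of the 9 members were among the 10 largest rises. The others were Ier2 (1.23 ± 0.09), Dusp1 (0.99 ± 0.07), Egr2 (0.93 ± 0.08) and Jun (0.69 ± 0.07), with adjusted p-values between 0.00064 and 0.00211. Over all genes the median difference was -0.01 and the 1st and 99th percentiles were -0.65 and 0.62. Without scaling between arrays the median of all genes was 0.30 higher on slide 2, so differences of that size or less depend on the scaling. All 9 members were called with either other scaling of the levels. They were also called without each replicate in turn, but that leaves 1 array on one slide, so the other slide alone gives the spread.

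**Figure D3:**
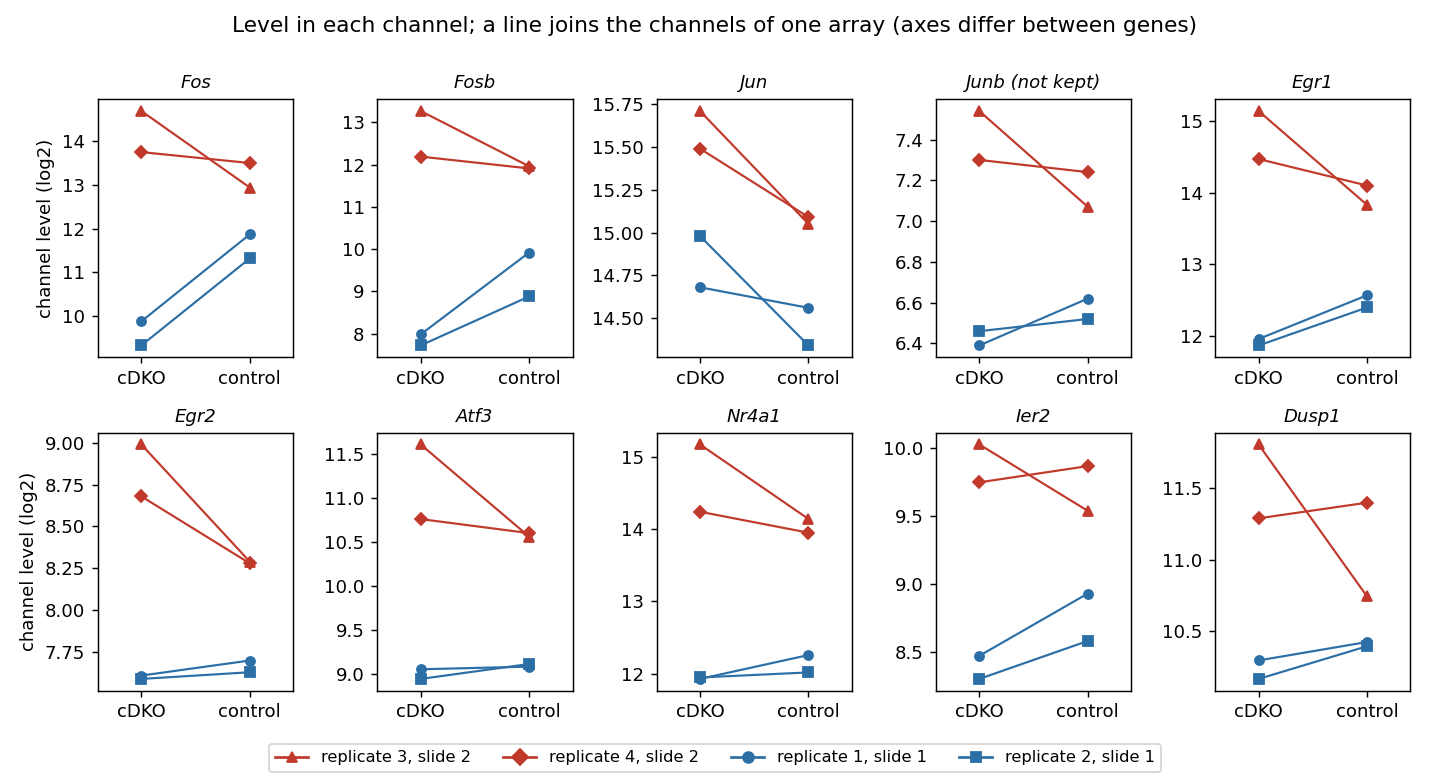
Levels (log2 intensity, vertical axes, which differ between genes) of the 10 members in the cDKO and control channels; a line joins the channels of one array, red for slide 2 and blue for slide 1. In every panel both red lines lie above both blue lines, and for Fos, Fosb and Egr1 the blue lines climb toward control while the red lines descend.

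The rise on slide 2 was larger in cDKO than in control channels for every member, the same fact as the positive slide difference of the ratios. For Fosb the slide 2 mean was 29.6-fold the slide 1 mean in cDKO channels and 5.82-fold in control channels. Egr1 reached 7.41-fold in cDKO channels and 2.79-fold in control channels, Nr4a1 6.79-fold in cDKO and 3.75-fold in control channels, and Atf3 4.55-fold in cDKO and 2.80-fold in control channels. Smaller rises were seen for Ier2 (2.84-fold in cDKO and 1.93-fold in control channels), Dusp1 (2.51-fold in cDKO and 1.58-fold in control channels) and Egr2 (2.35-fold in cDKO and 1.54-fold in control channels). Jun rose least and most evenly, by 1.70-fold in cDKO channels and 1.53-fold in control channels. The SD over the 4 arrays was larger in cDKO than in control channels for 9 of 9 members, as it was for 36.5% of all genes, whose median SD was 0.141 in cDKO channels and 0.172 in control channels.

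Of 40 other genes known as immediate early genes, 34 were measured. Between slides 21 of the 34 were called higher on slide 2 and 1 lower (Rgs2, a regulator of G protein signalling, -0.25). Over all genes 15.8% were called higher and 19.0% lower. The median difference of the 34 was 0.36, against 1.84 for the members. The largest was Socs3, a feedback inhibitor of cytokine signalling, at 1.75, which ranked 12 of all genes. It was followed by Ccn1, a secreted matrix protein, at 1.15, Nfkbiz, a nuclear NF-kB cofactor, at 1.03, Csrnp1 at 0.99 and Zfp36, which destabilises AU-rich transcripts, at 0.98. Rgs2 and these 5 were named after their values were seen. In the ratio, 0 of the 34 were called for a slide difference, and the list's median log2 ratio was 0.10, 0.15, 0.23 and 0.09 on replicates 1 to 4. The widest ranges of the ratio belonged to Ier3 (-0.26, 0.10, 0.99 and 0.05), Nfkbiz (-0.38, -0.39, 0.80 and 0.03), Jund (-0.06, 0.95, 0.19 and 0.22) and Rhob (0.37, 0.06, 0.47 and -0.47). Ier3, Nfkbiz and Rhob peaked on replicate 3 as the members did, while Jund peaked on replicate 2.

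Between genotypes 1 of these 34 genes was called, beside 0.553% of all genes called higher and 0.3% called lower. It was Fosl2, the Fos family member also known as Fra-2, which rose in cDKO ureters by 0.70 ± 0.08 (SE, n = 4, limma adjusted p = 0.0338). Its log2 ratio was 0.50, 1.06, 0.46 and 0.77 on replicates 1 to 4, above control on every array. The call was lost without replicate 1 (adjusted p = 0.102) or replicate 2 (0.061), with a sex term (0.0884), with dim probes kept (0.0833) and without the pairing within arrays (0.0636), and also within slide 2 (0.387) and within slide 1 (0.055). With the kept probes of the gene averaged the log2 ratio was 0.42 (adjusted p = 0.0585). Of the Fos family, Fosl2 thus had a called rise, the ratios of Fos and Fosb changed sign between slides, and Fosl1 was not measured.

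Upstream of the members, 20 kinases and factors were listed (SRF, ternary complex factors, CREB family, MAP kinases and their targets). All were measured, and 0 were called between genotypes or for a slide difference, while 4 had an unadjusted p under 0.05 for genotype, a share near the 19.6% of all genes. Their median fitted log2 ratio was 0.13, and 6 were called higher and 2 lower in level on slide 2 (15.8% and 19.0% of all genes), with a median difference of 0.11. Srf was among the higher (0.33), named after its value was seen. The smallest p-values belonged to the SRF coactivators Mrtfb (0.27 ± 0.08, adjusted p = 0.16) and Mrtfa (0.35 ± 0.11, adjusted p = 0.177) and to the CREB family factor Atf1 (0.22 ± 0.07, adjusted p = 0.173). The ratio ranged widest for the kinases Mapk8 (-0.04, 0.04, -0.33 and 1.07), Rps6ka1 (0.08, 1.01, -0.23 and 0.32) and Rps6ka3 (0.09, -0.21, 0.02 and 0.79) and for the ternary complex factor Elk1 (0.85, -0.41, 0.24 and 0.04). None of these 4 profiles peaked on replicate 3.

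The 13 target and feedback genes of FGF signalling through ERK, all measured, gave 0 calls between genotypes, 4 at an unadjusted p under 0.05 (19.6% of all genes) and 0 for a slide difference. Their median log2 ratio was 0.04, 0.25, -0.09 and 0.01 on replicates 1 to 4. Spry1, an inhibitor of receptor tyrosine kinase signalling, had 0.41 ± 0.08 (SE, adjusted p = 0.0669), the transcription factor Etv5 0.35 ± 0.10 (adjusted p = 0.146) and Il17rd, an FGF signalling inhibitor, -0.23 ± 0.07 (adjusted p = 0.172). The widest ranges were those of Spred2 (0.47, 0.49, 0.11 and -0.56), Etv1 (0.83, 0.60, -0.12 and 0.52), Dusp4 (0.14, 0.58, -0.28 and 0.01) and Etv4 (-0.07, 0.63, 0.14 and 0.18). These 4 were lower on replicate 3 than on replicate 2, unlike Fos and Egr1. In level, 5 of the 13 were called higher on slide 2, with Etv1 the highest at 0.88, and 1 lower (Spred1, -0.26). Over all genes 15.8% were called higher and 19.0% lower. The median level difference of the 13 was 0.18.

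Of 16 listed heat shock and stress genes, 15 were measured, and 2 were called higher and 2 lower in level on slide 2, against 15.8% and 19.0% of all genes, with a median level difference of -0.11. The chaperones Hspb1 (0.62) and Hspa1a (0.45) were higher, and Hspe1 (-0.46) and the heme oxygenase gene Hmox1 (-0.46) lower, all 4 named after their values were seen. Between genotypes 0 were called and 4 had an unadjusted p under 0.05 (19.6% of all genes). The smallest p-values were those of Ddit3, a stress-induced transcription factor (-0.26 ± 0.08, adjusted p = 0.166), Gadd45a, a growth arrest gene (0.33 ± 0.10, adjusted p = 0.168), and Ddit4, an mTOR inhibitor (0.25 ± 0.09, adjusted p = 0.201). The widest ratio ranges were those of the chaperonin Hspe1 (-0.71, -0.54, 0.06 and 0.13), the stress factor Atf4 (0.38, -0.14, 0.52 and 0.03), the chaperone Hspa5 (0.13, 0.02, 0.33 and -0.21) and Ddit4 (0.26, 0.43, -0.11 and 0.40). Hspe1 was the only one of these 4 with both slide 2 ratios above both slide 1 ratios.

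**Figure D4:**
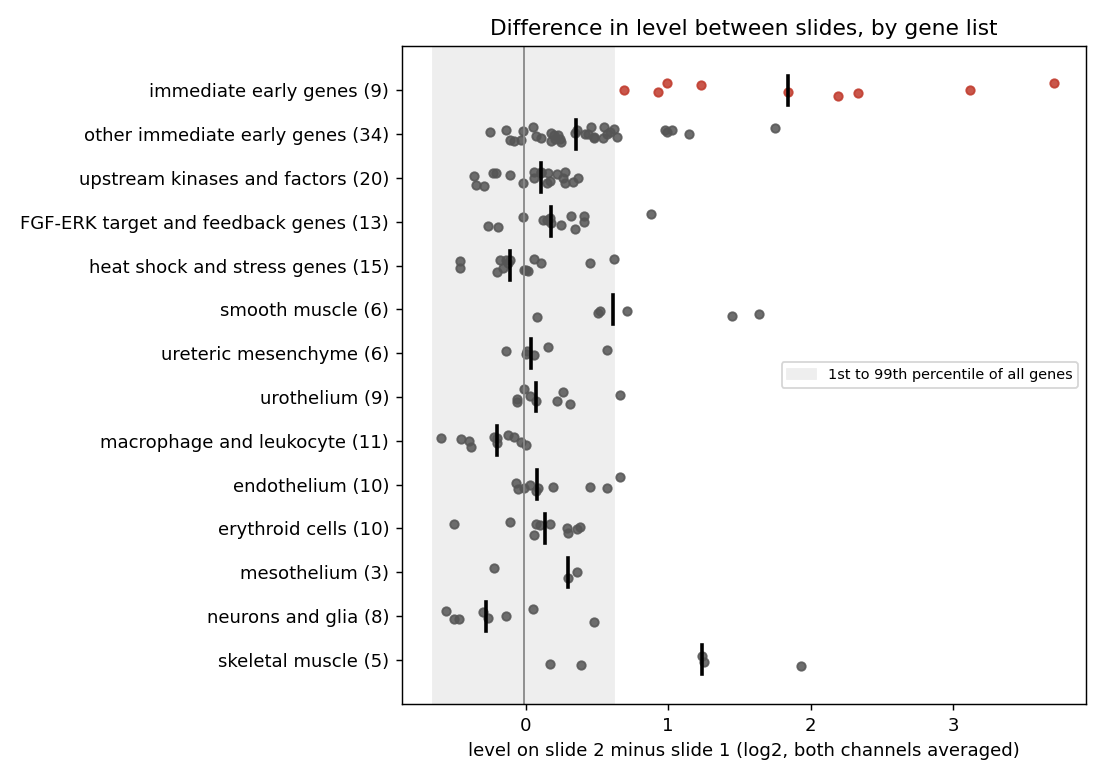
Difference in level (log2, both channels of an array averaged) between slide 2 and slide 1 for each measured gene of each list; points are genes, black bars list medians, the number measured is in brackets, and grey marks the 1st to 99th percentile of all genes (-0.65 to 0.62). Every one of the 9 members lies beyond the 99th percentile, between 0.69 and 3.71.

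Markers of cell types that could move with the members were read in the same comparison. Skeletal muscle genes, which mark tissue outside the ureter, were called higher on slide 2 in 4 of 5 measured (15.8% of all genes). Ckm was not measured. The median difference of the 5 was 1.24. Their summed log2 level ran from 10.38 to 11.40 over the cDKO channels and from 10.11 to 11.42 over the control channels. The muscle genes Myl1 (2.19), Tnnc2 (2.03), Acta1 (1.93) and Sln (1.87) stood among the 10 largest rises beside the members; all but Acta1 are outside the list and were named after their values were seen. Smooth muscle genes were called higher on slide 2 in 5 of 6 (15.8% of all genes), with a median of 0.62 and a highest value of 1.64 for Acta2. Their summed level ran between 13.44 and 14.67 in cDKO channels and between 13.23 and 14.06 in control channels. The part of either list in the rise of the members was not tested. In the ratio, skeletal muscle genes had medians of 0.02, 0.09, 0.03 and 0.04 on replicates 1 to 4, against -0.34, -0.22, 1.05 and 0.28 for the members, and 1 of 5, Myh3, was called for a slide difference (-1.33; 0.553% of all genes were called lower on slide 2).

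Neuronal and glial genes had ratios that varied with the arrays, with medians of -0.07, -0.63, 0.69 and -0.43 on replicates 1 to 4. For a slide difference 2 of 8 were called, Th and Stmn2, both higher on slide 2 (0.341% of all genes). Their summed level ran between 16.29 and 16.59 in cDKO channels and between 16.15 and 16.66 in control channels. In level they were called lower on slide 2 in 4 of 8 and higher in 1, with a median of -0.28, opposite to the members. Macrophage genes were called lower on slide 2 in 6 of 11 and higher in none, with a median of -0.20. Over all genes, 15.8% were called higher and 19.0% lower on slide 2, and without scaling between arrays 195 genes were called lower. The other medians of the level difference were 0.04 for ureteric mesenchyme (1 of 6 called higher), 0.07 for urothelium (4 of 9), 0.08 for endothelium (3 of 10), 0.14 for erythroid cells (3 of 10, and 1 lower) and 0.30 for mesothelium (2 of 3). The part of these lists in the members' ratios was not tested. Between genotypes, the called markers were Ptch1 (0.55) and Car3 (-0.61) of 6 mesenchyme genes and Upk1b (-1.43) of 9 urothelial genes. Also called were Fcer1g (-0.52) of 11 macrophage genes and Emcn (-0.58) of 10 endothelial genes. Hbb-bh1 (-0.54) and Hba-x (-0.66) of 10 erythroid genes and Msln (-0.82) of 3 mesothelial genes were the others. Over all genes, 0.553% were called higher and 0.3% lower. The urothelial genes had a median ratio of -0.03, with 3 of 9 above 0, and 4 of 6 mesenchyme genes were above 0.

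Some genes that are no members had ratio profiles near that of the members. Of 875 genes (4.52%) whose log2 ratio spanned at least 1 over the 4 arrays, the nearest to the members' median profile by root mean square difference over the 4 arrays were Nr1h5 (0.11), Nfkbiz (0.20), Ier3 (0.20), Nap1l5 (0.21), Zfp345 (0.21), Zfp992 (0.22), Scg5 (0.23) and Olfr1410 (0.24). Nfkbiz and Ier3 belong to the list of other immediate early genes. The levels of these genes between slides were not alike: Nfkbiz (1.03) and Ier3 (0.48) were called higher on slide 2, while Nr1h5 (-0.35), Nap1l5 (-0.25) and Scg5 (-0.32) were called lower. Zfp345 (-0.06), Zfp992 (-0.05) and Olfr1410 (0.05) did not pass the threshold.

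The values deposited by the authors gave the same picture for the members. On the log2 scale, the signed folds in the authors' deposited table were 1.78 and 0.21 on slide 2 and -2.09 and -2.19 on slide 1 for Fos. For Fosb the authors' deposited table gives 1.27 and 0.28 on slide 2 and -2.43 and -1.73 on slide 1. In that table the sign of all 36 ratios of the 9 members, 4 arrays each, was the same as above. It was also the same in all 36 with the scanner's processed signals, without background correction and with an offset of 10, and in 31 of 36 with median centring in place of loess.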

How the data were processed

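The members and gene lists were chosen with earlier results of these data known. Total RNA of mechanically dissected ureters was labelled by the authors from an input of 150 ng for 2-colour hybridisation, per the labels' protocols. Per the submitters' processing notes and the file headers, spots were read with Agilent Feature Extraction 10.7.3.1, with probe coordinates on mouse build mm9. The deposited files give mean and local background intensity for each spot and channel, not normalized, and, per the file headers, processed intensity values and a log10 ratio (red over green). A further table deposited by the authors holds a score per probe, a signed fold with no value between -1 and 1 and a median of 1 in each column. Set against the red over green ratio of kept probes, it correlated at 0.989 to 0.991 where cDKO was in Cy5 and at -0.992 to -0.991 where cDKO was in Cy3, which makes positive values higher in cDKO. Its centring is unknown.

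Background was corrected on mean intensity by normexp with an offset of 50, followed by loess within each array (span 0.3) on log2 ratios. Spots marked as outliers carried no weight, and the remaining spots of a probe were averaged. The filter required 3 or more of the 4 spots well above background in every cDKO channel or in every control channel, which kept 25591 probes (64.9%). The brightest kept probe stood for a gene, which left 19365 genes, named through a RefSeq table by accession (28328 probes), symbol (3400) or synonym (243) and otherwise by the name in the file (7458). The fit of the ratios used limma 3.58.1 in R 4.3.3, with dye and genotype terms, two-sided, with Benjamini-Hochberg adjustment over all genes; 2 residual and 4.53 prior degrees of freedom stand behind each test. Levels per channel were scaled between arrays with Aquantile. The number of arrays limits the precision. The fits were tested on simulated data. Named genes are all members, up to 4 called genes of a pathway list (or the 3 with the smallest p) with the 4 widest ranges of the ratio, called markers, and the 8 genes nearest to the members' median profile, chosen among 649 genes after clone and predicted-gene names were left out. Alternatives covered background correction, normalization, the filter, probes per gene, the model terms, slides and replicates left out.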

Additional observations from a re-analysis of the deposited data

Results flagged for a closer look

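The effect of the cDKO genotype differed between the slides for 3 of the members by limma. The difference of the log2 ratio, slide 2 minus slide 1, was 2.99 for Fos, with means of 1.00 on slide 2 and -1.99 on slide 1. It was 2.35 for Fosb, with means of 0.80 on slide 2 and -1.55 on slide 1. For Egr1 it was 1.41, with means of 0.84 on slide 2 and -0.57 on slide 1.

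The Dusp1 ratio of replicate 3, at 1.07, stood far above its other 3 arrays by Dixon's test for 1 stray value. Chance gives such a mark in about 1 of 20 groups of samples.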

How the results depend on the processing

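No member was called between genotypes except under these settings: 1 (Jun) with slide as a term, and 2 (Fos and Fosb) within slide 1. The number of genes called in all, 165 (64.8% higher), was 254 with a normexp offset of 10 (59.4% higher), 255 with median centring, 1 with no filter on dim probes, 258 with no dye term, 2 with the sex label as a term, 2418 with slide as a term, 551 within slide 1 and 0 by limma within slide 2, where 1346 genes and 7 members had an unadjusted p under 0.05. Without each replicate in turn it ran between 34 (without replicate 1) and 403 (without replicate 4). Without the pairing of cDKO and control within an array (no replicate block) it was 73, and 0 members were called. Within slide 1 the ratios of Egr1 (-0.57), Egr2 (-0.06), Atf3 (-0.10), Nr4a1 (-0.20) and Dusp1 (-0.18) turned sign, and within slide 2 those of Fos (1.00), Fosb (0.80) and Ier2 (0.19). Leaving out each replicate in turn gave -1.43 to 0.44 for Fos (0.07 without replicate 2), -1.19 to 0.43 for Fosb, -0.35 to 0.61 for Egr1 (-0.09 without replicate 4), -0.02 to 0.52 for Atf3, -0.11 to 0.57 for Nr4a1, -0.33 to 0.15 for Ier2 and -0.15 to 0.45 for Dusp1. The cause was not tested. Members called for a different effect between slides, 3 as reported, were 0 with no filter on dim probes and 0 with no dye term. In each of those settings 7 members had an unadjusted p under 0.05, beside 3765 genes without the filter and 1387 without the dye term. The 173 genes called in all were 6 and 5 in those settings, 17 with median centring and 284 with the authors' deposited table. With each replicate left out in turn, the median ratio of the members, 0.15, ran from -0.15 (without replicate 3) to 0.45 (without replicate 1). That median was -0.20 within slide 1 and 0.60 within slide 2. All 9 members were called in level under every scaling; they were also called without each replicate, where 1 slide has 1 array and the other alone gives the spread. The share of called genes that were higher on slide 2, 45.4%, was 30.1% with median scaling and 98.1% with no scaling, which moved the median of all genes by 0.30; without replicate 1 the calls fell to 1025 of 6751. Junb alone failed the filter on dim probes, but Fosb and Egr2 were also low on slide 1. Their mean intensity in the cDKO channel of replicate 2 was 83.62 and 83.44, over a background of 24.8 for each. The Fosb log2 ratios on replicates 1 and 2, -1.94 and -1.16, were -2.16 and -1.42 with an offset of 10.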
